A study of Arabidopsis thaliana with 4 samples.

Results

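SWEET genes encode sugar transporters, small membrane proteins that let sucrose or hexoses pass down their concentration gradient. Some SWEET proteins sit in the plasma membrane and release sugar from cells, for example on the way from leaf tissue into the phloem. Others sit in the tonoplast, the membrane of the vacuole, where leaf and root cells store sugar. On the ATH1 array of Arabidopsis thaliana, 14 probe sets are paired with a single gene whose symbol is SWEET and a number. The 5 described here were chosen by their mean signal over the 4 arrays, which had to be at least 20: SWEET1, SWEET2, SWEET11, SWEET16 and SWEET17. They are 5 of 13513 probe sets paired with a single gene, and each is represented by 1 probe set.

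The study set out to find the target genes of SMG7b, which acts in nonsense-mediated mRNA decay (NMD), the removal of mRNAs whose reading frame ends too early. RNA was taken from whole plants of 17 days grown in 5 inch pots at 22 °C and 65% humidity in constant light, 1 sample per array. The wild type (2 arrays) was the Col-0 accession, and smg7b (2 arrays) was the T-DNA insertion line SALK_050115 in the Col-0 background. All mutant RNA came from this 1 line, so other changes carried by the line cannot be told apart from the insertion, and the labels do not say whether replicates came from separate plants. The targeted gene SMG7L (AT1G28260) read 49.7 and 46.8 in wild-type plants, against 16.7 and 14.4 in mutants.

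The values are scaled signals of the scanner software on a linear scale, and the number of arrays limits their precision. The 2% trimmed mean was 100.01 on each array. The background of an array, taken as its brightest Bacillus control probe set, ranged from 6.42 to 9.21. The ratio of the 3' to the 5' Actin control probe sets, a measure of RNA integrity and labelling, was 2.22 and 8.62 in wild-type plants, against 25.8 and 9.65 in mutants, so smg7b replicate 1 stood highest. The same ratio for GAPDH was milder, at 0.96 and 1.22 in wild-type plants, against 2.26 and 1.41 in mutants. Green leaf markers with a probe set (2 of 9 listed) were bright on every array, with summed signals of 7005 and 10289 in wild-type plants, against 8356 and 7848 in mutants. These markers differed from each other: PRK, a Calvin cycle gene, read 3172 and 3454 in wild-type plants, against 1823 and 2225 in mutants, while PSAE1, a photosystem gene, overlapped. PRK gave a log2 difference of -0.72 (adjusted p = 0.0680 in limma) and passed after median centring (0.0403), after quantile normalization (0.0223) and when either wild-type array was dropped (9.82e-04 and 0.00488). Of the root markers 2 of 10 had a probe set (summed 346 and 365 against 403 and 518), EXPA7 lying above background on 1 array. Of the flower and pollen markers 3 of 9 did (summed 32.4 and 41.5 against 35.4 and 17.3), A9 never lying above background. None of the 8 listed phloem markers had a single-gene probe set. The part of these markers in the results below was not tested.

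SWEET2 and SWEET17, which encode tonoplast transporters, were lower in smg7b, each by more than 2-fold. The other tonoplast member, SWEET16, read lower on both smg7b arrays but did not pass the test. For the plasma membrane transporters SWEET1 and SWEET11 the genotypes overlapped, and whether the change differs between the membranes was not tested. Thus 2 of the 5 members were called lower and 0 higher at an adjusted p under 0.05 in limma with Benjamini-Hochberg adjustment over 13648 probe sets, with 2 at an unadjusted p under 0.05. Over all tested probe sets 20.3% were called, 9.0% lower and 11.3% higher. Of these calls 55.7% were higher, or 42.2% after median centring of the arrays, which lowered every log2 difference by 0.12 and left the same 2 members called. The median log2 difference (smg7b minus wild type) was -0.59 over the members and -0.01 over all tested probe sets. These are whole-plant samples, in which fewer cells of a type and less RNA per cell cannot be told apart.

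**Figure D1:**
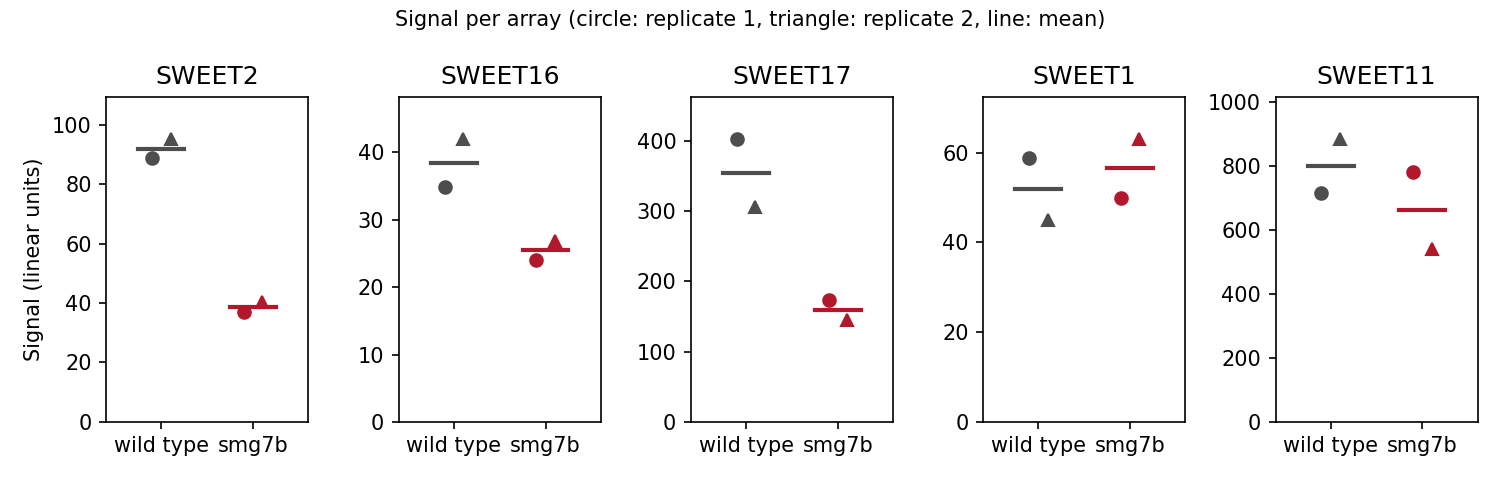
Signal of the 5 SWEET genes on each array (y axis, linear units from 0, with its own scale in each panel) for wild type (grey) and smg7b (red). Circles are replicate 1, triangles replicate 2 and lines the mean of 2 arrays. SWEET2, SWEET16 and SWEET17 do not overlap between genotypes, while SWEET1 and SWEET11 do.

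SWEET2 (AT3G14770, chromosome 3) encodes a transporter of the tonoplast known from roots, where it limits the loss of sugar to the soil. Its signals were 88.7 and 95.2 in wild-type plants, against 36.8 and 40.4 in mutants. Both mutant arrays lay below both wild-type arrays, and the gap was far wider than the spread within either genotype. The means were 91.9 ± 4.61 in wild type and 38.6 ± 2.52 in smg7b (SD, n = 2 each). The log2 difference was -1.25 (SE 0.23, 95% interval -1.76 to -0.75, n = 2 per genotype), a 2.38-fold lower signal, with an adjusted p of 0.00267 in limma. With the Actin ratio as a covariate it was -1.26 (SE 0.35), and without smg7b replicate 1 it was -1.19 (adjusted p = 0.0425 in limma). Among the processings tried, adding a pseudocount of 32 to the signals alone changed the size of the fall by over 1.5 times on the log2 scale, to -0.81 (adjusted p = 0.00206 in limma).

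SWEET17 (AT4G15920, chromosome 4) encodes a fructose transporter of the tonoplast. It read 403 and 306 in wild-type plants, against 174 and 144 in mutants. The lowest wild-type array was well above the highest mutant array, although the wild-type pair differed more between themselves than for SWEET2. The means were 355 ± 68.4 and 159 ± 21.0 (SD, n = 2 each). The log2 difference was -1.15 (SE 0.21, 95% interval -1.61 to -0.69), a 2.21-fold lower signal, with an adjusted p of 0.00261 in limma. Leaving out single arrays gave -0.95 to -1.35, with the adjusted p nearest to the threshold without smg7b replicate 2 (0.0430 in limma). With the Actin ratio as a covariate it was -1.02 (SE 0.27).

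SWEET16 (AT3G16690, chromosome 3) encodes the closest relative of SWEET17, a tonoplast transporter of glucose, fructose and sucrose. Its signals were 34.8 and 42.0 in wild-type plants, against 24.1 and 26.8 in mutants, so the genotypes did not overlap here either. The means were 38.4 ± 5.06 and 25.4 ± 1.89 (SD, n = 2 each). The log2 difference of -0.59 (SE 0.29, 95% interval -1.22 to 0.04) did not pass the test (adjusted p = 0.175 in limma). With a pseudocount of 32 it shrank to -0.29 (adjusted p = 0.160). The interval covers both no difference and a fall as large as that of SWEET17. Whether the changes of the members differ from each other was not tested. Its mean over the 4 arrays, 31.9, was the nearest of the 5 to the limit of 20, and it read above background on every array.

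SWEET1 (AT1G21460, chromosome 1) encodes a glucose transporter of the plasma membrane. It read 58.9 and 44.9 in wild-type plants, against 49.9 and 63.1 in mutants. The highest and the lowest array belonged to different genotypes, and the remaining pair of arrays, 1 of each genotype, lay between them. The log2 difference was 0.13 (SE 0.26, 95% interval -0.44 to 0.69, adjusted p = 0.771 in limma), and its sign depended on the array left out (-0.070 without wild-type replicate 2, but 0.32 when replicate 1 of that genotype was dropped). With the Actin ratio as a covariate it was 0.52 (SE 0.36), still not called.

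SWEET11 (AT3G48740, chromosome 3) encodes a sucrose transporter of the plasma membrane of phloem parenchyma, where it works with SWEET12 in passing sucrose towards the phloem. It read 714 and 884 in wild-type plants, against 781 and 541 in mutants. The lowest array was smg7b replicate 2 and the highest wild-type replicate 2, with the replicate 1 arrays close together. The means were 799 ± 120 and 661 ± 170 (SD, n = 2 each), a difference within that spread. The log2 difference was -0.29 (SE 0.23, 95% interval -0.80 to 0.22, adjusted p = 0.421 in limma), which does not show an equal level in the genotypes. It was -0.56 without smg7b replicate 1, -0.02 without smg7b replicate 2 and -0.72 (SE 0.30) with the Actin ratio as a covariate, in each case not called. SWEET12, its partner, was not analysed here, since no probe set was paired with that gene alone.

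Counted without a test, both smg7b signals lay below both wild-type signals for 3 of the 5 members, against 31.2% of all tested probe sets. The genotypes did not overlap in either direction for the same 3, against 61.3% of tested probe sets. All 5 members had a mean of at least 20 in each genotype taken alone, so none entered only through the genotype in which it was higher. The nearest gene inside the limit was SWEET16, and the nearest outside were SWEET13 with a mean of 19.1 and SWEET4 with 14.8.

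The remaining 9 SWEET genes of the array were too dim for the limit and for the test. SWEET13, a sucrose transporter gene, read 21.9 and 28.7 in wild-type plants, against 14.3 and 11.5 in mutants. SWEET4, a hexose transporter gene, read 19.7 and 18.3 in wild-type plants, against 8.88 and 12.2 in mutants. For each of these genes both mutant arrays were the lower ones. With no filter on dim probe sets the log2 difference was -0.97 for SWEET13 (SE 0.47, adjusted p = 0.249 in limma) and -0.87 for SWEET4 (SE 0.53, adjusted p = 0.378), neither called.

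Of the 9, SWEET13 was the 1 gene above background on all 4 arrays, and SWEET4 was above it on 3. SWEET9, the nectary transporter gene, read 10.5 and 9.78 in wild-type plants, against 6.52 and 7.53 in mutants, and was above background on 3 arrays. SWEET14 read 9.80 and 16.0 in wild-type plants, against 1.51 and 5.74 in mutants, at or below background on both mutant arrays. SWEET6 was above background only on wild-type replicate 2, at 13.4. Together with SWEET13 and SWEET4 these are 5 of 9 with both mutant arrays lower, against 20.8% of the 9098 probe sets too dim to be tested. Both the 9 and the 9098 were picked by their dimness, which a low signal in 1 genotype helps to bring about. The count was not tested. It supports nothing about genotype, since it rests on 9 genes, of which only SWEET13 was above background on every array.

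**Figure D2:**
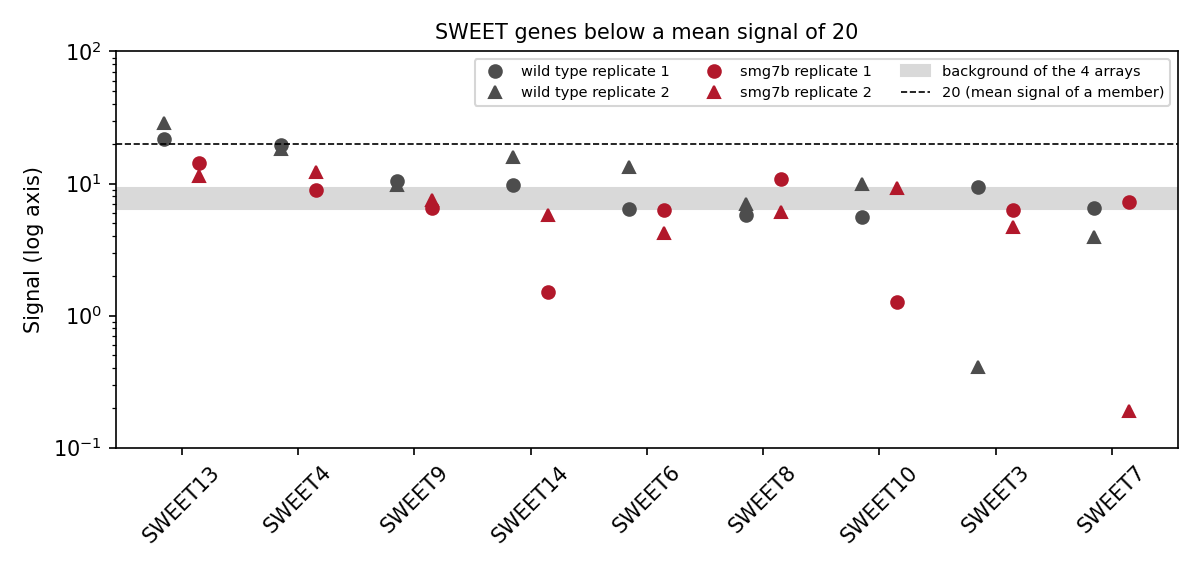
Signal on each array (y axis, log scale) of the 9 SWEET genes with a mean signal under 20 (x axis), wild type in grey and smg7b in red, circles for replicate 1 and triangles for replicate 2. The grey band spans the background of the 4 arrays (6.42 to 9.21) and the dashed line marks 20. Beyond SWEET13 and SWEET4 most signals lie in or under the band.

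The genotypes overlapped for SWEET3, SWEET7, SWEET8 and SWEET10. SWEET8, a gene needed for pollen development, ranged from 5.78 to 10.8, and SWEET7 from 0.19 to 7.21 without passing the background of any array. Family members listed under another symbol were also dim. SAG29, which is SWEET15 and known from leaf senescence, read 0.73 and 10.9 in wild-type plants, against 4.56 and 3.28 in mutants, above background on 1 array. AtVEX1, which is SWEET5, read 8.07 and 1.41 in wild-type plants, against 14.2 and 5.50 in mutants. Of the senescence list 2 of 11 genes had a probe set, and these 2 were called higher, where 11.3% of all tested probe sets were called higher. Whether senescence differed between the genotypes was not tested. SAG101 read 13.8 and 25.4 in wild-type plants but 67.2 and 67.3 in the mutant, and WRKY53 went from 15.7 and 18.1 to 605 and 512. On their wild-type signals alone neither gene would have reached the filter on dim probe sets. The gene SWEETIE, whose name begins like those of the family but carries no number, is no member. Its log2 difference was 0.81 (SE 0.28, adjusted p = 0.0593 in limma).

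Other sugar carriers of the array were compared with the SWEET genes through lists of loci. Of 45 listed carriers outside the family 12 had a single-gene probe set and 7 were bright enough to be tested, 3 of them called lower and 1 higher, where 9.0% of all tested probe sets were called lower and 11.3% higher. Their median log2 difference was -0.63, and that of all tested probe sets was -0.01. The 9 listed sucrose carriers of the SUC family had no single-gene probe set.

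The carriers called lower all belonged to the list of vacuolar and plastid sugar carriers, which holds the ERD6-like family too. That list also held 5 of the 7 tested carriers, and whether the fall was particular to it was not tested. Of 12 listed genes 6 had a probe set, 5 were tested, and 3 of the 5 were called lower and 0 higher (median log2 difference -0.82), against 9.0% called lower and 11.3% called higher among all tested probe sets, whose median was -0.01. TST1 (TMT1 on the array, AT1G20840), which pumps sugar into the vacuole, read 261 and 192 in wild-type plants, against 113 and 105 in mutants. Its log2 difference was -1.04 (SE 0.21, adjusted p = 0.00520 in limma), and it missed the threshold without smg7b replicate 2 (adjusted p = 0.0505). SFP2 (AT5G27360), of the ERD6-like family, read 84.3 and 73.2 in wild-type plants, against 24.6 and 31.2 in mutants. Its log2 difference was -1.50 (SE 0.26, adjusted p = 0.00176 in limma). VGT2 (AT5G17010), of the vacuolar glucose transporter family, read 86.3 and 117 in wild-type plants, against 51.5 and 62.7 in mutants, a log2 difference of -0.82 (SE 0.24, adjusted p = 0.0316 in limma). The VGT2 call was lost without the filter on dim probe sets (adjusted p = 0.0539), without smg7b replicate 1 (0.277), without smg7b replicate 2 (0.0813) and without wild-type replicate 2 (0.0806).

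SFP1 and TST2, the neighbours in family of SFP2 and TST1, read lower on both mutant arrays without passing. The log2 difference of SFP1 was -0.60 (SE 0.21, adjusted p = 0.0626 in limma) and TST2 gave -0.63 (SE 0.23, adjusted p = 0.0801). Both passed in limma after median centring (adjusted p = 0.0332 and 0.0399) and after quantile normalization (0.0495 and 0.0394). They also passed with arrays of different replicate number paired across genotypes (0.0160 and 0.0389). That pairing was chosen after seeing the data, so it adds no support. Without wild-type replicate 2 the log2 difference was -0.80 for each, in a fit that took the spread from the intensity trend alone.

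**Figure D3:**
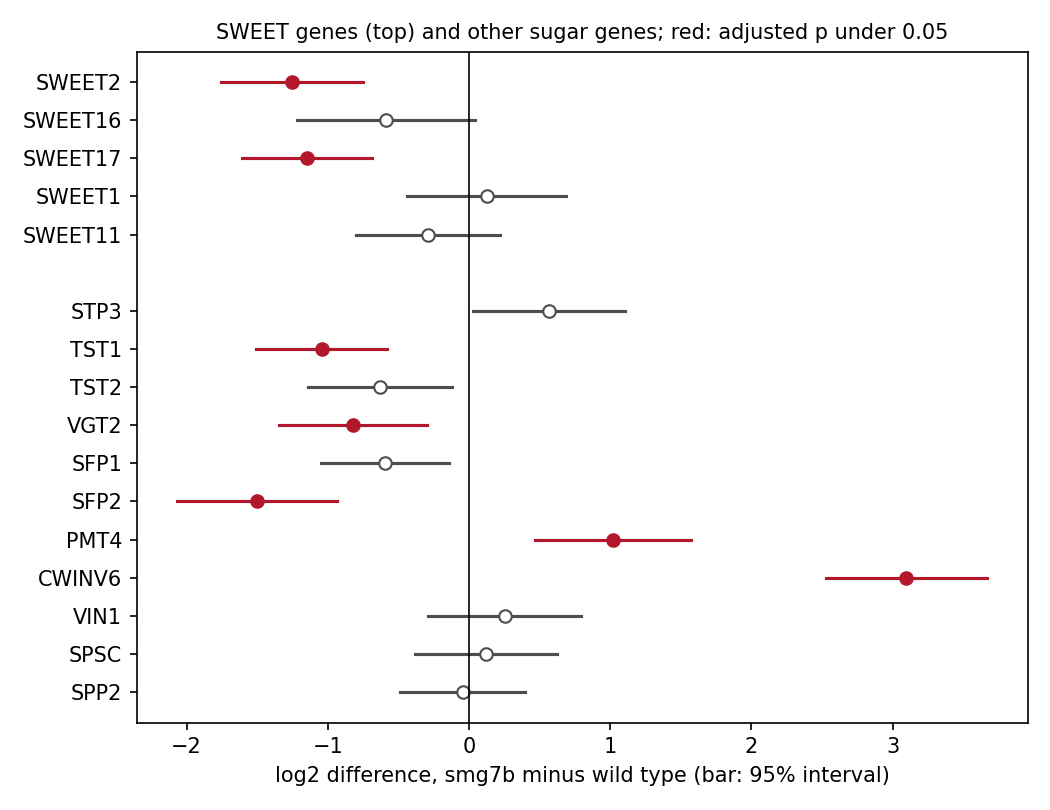
The log2 difference (x axis, smg7b minus wild type, points with 95% intervals from limma, 2 arrays per genotype) of the 5 SWEET genes (top) and of the tested genes of the other sugar lists (below). Filled red points passed an adjusted p of 0.05. SWEET2, SWEET17, TST1, VGT2 and SFP2 lie to the left of 0, and PMT4 and CWINV6 to the right.

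Other sugar genes were higher in smg7b or did not pass the test. PMT4 (AT2G20780), of the polyol transporter family and the 1 tested gene of 10 polyol and inositol carriers, read 55.7 and 37.7 in wild-type plants, against 98.7 and 87.6 in mutants. It rose by 1.02 on the log2 scale (SE 0.25, adjusted p = 0.0153 in limma), a call that did not hold when either mutant array was dropped (adjusted p = 0.165 for replicate 1, 0.0673 for replicate 2). The hexose carrier gene STP3, the 1 tested of 14 hexose carriers of the plasma membrane, gave 0.57 (SE 0.25, adjusted p = 0.132). Its log2 difference was 0.73 when wild-type replicate 1 was dropped.

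Among invertases and their inhibitors 2 of 12 listed genes were tested and 1 was called, where 20.3% of all tested probe sets were called. CWINV6 (AT5G11920), listed with the cell wall invertases and known to cleave fructans, read 15.4 and 12.8 in wild-type plants, against 121 and 120 in mutants. On its wild-type signals alone the gene would not have reached the filter on dim probe sets. It rose by 3.10 on the log2 scale (SE 0.26, adjusted p = 7.93e-06 in limma), while the vacuolar invertase gene VIN1 gave 0.25 (SE 0.25), with an adjusted p of 0.516. The VIN1 value had no stable sign, being 0.65 without wild-type replicate 2, -0.15 when wild-type replicate 1 was dropped and -0.26 with the Actin covariate. Neither of the 2 tested genes of sucrose synthesis and cleavage passed (of 12 listed): SPSC, a sucrose phosphate synthase gene, gave 0.12 (SE 0.23) and SPP2, a sucrose phosphatase gene, gave -0.05 (SE 0.20). The 9 listed genes of sugar sensing and starvation had no single-gene probe set. Of 5 tested reference genes 1 was called, a share near the 20.3% of all tested probe sets. It was TUB6, a tubulin gene, which fell by 1.13 on the log2 scale (SE 0.20, adjusted p = 0.00202 in limma).

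Likeness of pattern was measured as the root mean square distance between log2 profiles over the 4 arrays, each centred on its own mean, among 7353 tested probe sets with a single gene. Between members the distance was smallest for SWEET2 and SWEET17 (0.23) and largest for SWEET2 and SWEET1 (0.71). The genes nearest to SWEET17 were AT1G60990 at 0.06 and TST1 at 0.08, the carrier described above. AT1G60990 read 56.6 and 45.4 in wild-type plants, against 25.4 and 19.1 in mutants, so that, as for SWEET17, wild-type replicate 1 was highest and smg7b replicate 2 lowest. Nearest to SWEET2 were AT1G02180 at 0.03 and SAH7 (AT4G08685) at 0.04. SAH7 read 587 and 649.5 in wild-type plants, against 260.5 and 287.5 in mutants, each pair lying close together, as those of SWEET2 do. For SWEET16 the nearest were AT5G14500 (0.02) and AT1G02816 (0.03), for SWEET1 AT1G08315 (0.03) and AT3G07090 (0.04), and for SWEET11 AT3G24070 (0.03) and AT5G66310 (0.03). Among so many probe sets and over 4 arrays, close profiles are found for any member.

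**Figure D4:**
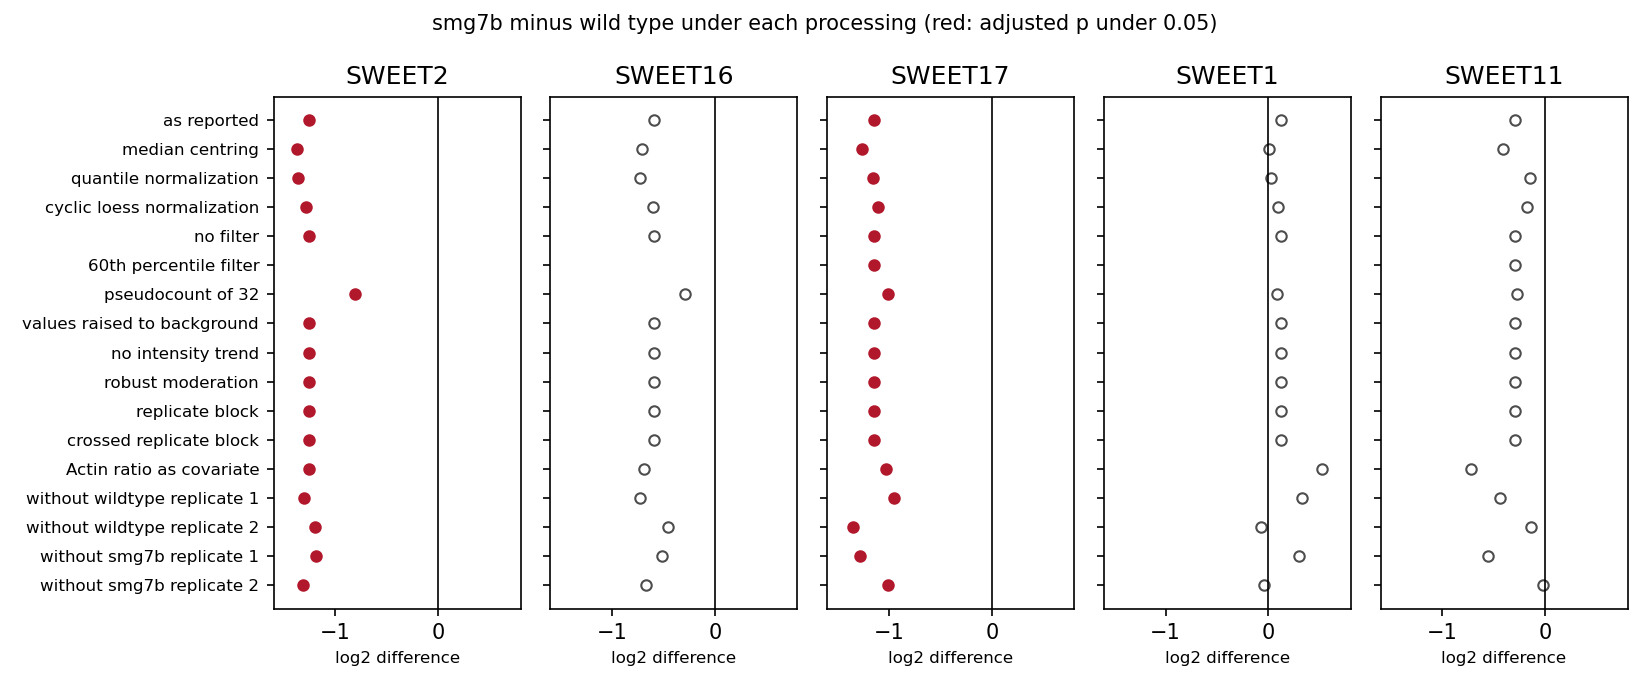
The log2 difference (x axis, smg7b minus wild type) of each SWEET gene under each processing (y axis), red where the adjusted p was under 0.05. SWEET2 and SWEET17 were called wherever they were tested, while SWEET16, SWEET1 and SWEET11 were called in no processing, and the 60th percentile filter left SWEET2, SWEET16 and SWEET1 untested.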

How the data were processed

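The deposited values are 1 signal intensity per probe set and array on a linear scale, made with MAS5 and GCOS per the submitters' processing notes (their versions are not stated there). The values show that the authors scaled all arrays to a common level. Control probe sets (64) were left out, signals were put on the log2 scale, and those whose mean log2 reached the 40th percentile (4.32) entered limma 3.58.1 in R 4.3.3 (lmFit, then eBayes with an intensity trend, genotype as the only term, 11.6 total degrees of freedom). P-values were adjusted by Benjamini-Hochberg over 13648 probe sets and reflect the spread among these arrays alone, possibly only technical spread. For 1 probe set, 2 arrays against 2 cannot give an exact permutation p below 0.333. Genes were named through the platform table and RefSeq's TAIR10.1 gene table (13436 of 13513 matched); a gene of a list was read by its brightest probe set. The genes named were fixed by rule: every SWEET gene, list members by call or signal, and the 2 nearest profiles of each member. The members and lists, with loci recalled from general knowledge, were chosen with earlier results of these data known. The fit was tested on simulated data. Alternatives were other scalings, filters, a pseudocount, moderation, blocks, an Actin covariate and arrays left out.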

Additional observations from a re-analysis of the deposited data

How the results depend on the processing

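SWEET2 and SWEET17 kept their direction and their call under each alternative in which they were tested, the range of log2 differences being -1.37 to -0.81 for SWEET2 and -1.35 to -0.95 for SWEET17, with adjusted p up to 0.0425 and 0.0430 in limma. SWEET16 ranged from -0.73 to -0.29 (the latter with a pseudocount of 32) and SWEET11 from -0.72 to -0.02, never called. SWEET1 was never called and ranged from -0.070 to 0.32 when single arrays were left out, turning negative without wild-type replicate 2 (-0.070) and without smg7b replicate 2 (-0.043), the cause of which was not tested. With the 60th percentile filter 1 SWEET gene was called, since only SWEET11 and SWEET17 were bright enough to be tested. A limit of 10 or of 40 on the mean signal left 2 called, but this count could not have changed. The lower limit adds only SWEET13 and SWEET4, which were not tested. The higher limit removes only SWEET16, which was not called. Over the whole array 2771 probe sets were called, 963 to 4403 when single arrays were left out (963 without smg7b replicate 1, 1508 without smg7b replicate 2, 4403 without wild-type replicate 2) and 1709 with an Actin ratio covariate. Of the calls 55.7% were higher in smg7b, and 42.2% after centring each array on its median, which lowered every log2 difference by 0.12. That share was 71.2% without smg7b replicate 1, where 686 were higher and 277 lower (1543 and 1228 with all arrays), and 64.7% with the Actin covariate. In the fits that lacked a wild-type array, and in that with the Actin covariate, limma took the spread from the intensity trend alone, which makes p too small where a gene varies more than the trend. Deviations of arrays with the same replicate number were weakly and negatively correlated (-0.15 over the tested probe sets). With 2 arrays per genotype this cannot settle whether the numbers pair the samples. A replicate block gave 2488 calls and the crossed pairing, chosen after seeing the data, 3988, each with 2 SWEET genes called. Each SWEET gene had 1 probe set, so averaging over the probe sets of a gene could not be tried.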
